A study of Mus musculus with 9 samples.

Results

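Gene expression in the apex of the newborn mouse heart was compared between pups that had apical resection together with left vagotomy and pups that had sham surgery. The comparison takes 3 libraries of the combined surgery and 3 of sham surgery, 6 of the 9 libraries in the series, chosen by their labels. It covers 13240 of the 14479 genes in the expression matrix, those with a mean of at least 1 FPKM (sequenced fragments scaled to transcript length and library size) over all libraries. All pups were of the outbred CD-1 strain, were operated on postnatal day 1 and gave tissue from the lower ventricular apex on postnatal day 2. The remaining 3 libraries come from pups with apical resection alone and serve as a further reference. No group had vagotomy without resection, so an effect of cutting the nerve by itself cannot be told apart from one that depends on the wound. The labels do not say whether the 3 libraries of a group came from separate pups or litters, so p-values measure the spread between these samples, which may be technical.

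In apical resection the tip of the ventricle is cut away. The newborn mouse heart can close such a wound with new muscle, during a short window after birth in which cardiomyocytes still divide. Blood clotting, an influx of neutrophils and monocytes and the laying down of a provisional matrix come first. The vagus nerve carries the parasympathetic fibres of the heart, whose acetylcholine acts on cardiomyocytes mainly through the muscarinic receptor Chrm2, and vagal signals are also known to restrain cytokine release by macrophages. Which genes differ from sham within a day of the combined surgery is the question that this comparison answers.

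In the pups with resection and vagotomy 14 of 27 macrophage markers, 8 of 13 neutrophil markers, 6 of 21 acute-phase genes and 9 of 23 protease genes were higher than in sham, and 18 of 40 mitosis and 11 of 37 DNA replication genes were lower. Without sham library 2, or with Y-linked transcripts as a term in the fit, none of the mitosis and replication genes was lower. In all, 1323 genes passed, 9.99% of those tested: 765 were higher than in sham, 5.78% of those tested, and 558 were lower, 4.21% (limma, Benjamini-Hochberg adjusted p at most 0.05), and 3978 genes had an unadjusted p under 0.05. The median change over all genes was 0.032 on the log2(FPKM + 1) scale, on which 1 unit is a factor of 2. Changes below are differences on this scale, which understates the change of low genes. With each of the 9 libraries left out in turn, Spp1, Arg1, Tyrobp, Ctss, S100a9, Il1rn, Saa3, Mt2, Ccne2, Myocd, Ndufb3, Ict1 and Tinagl1, described below, passed every time. Of these, Saa3, Mt2, Ccne2, Myocd and Ndufb3 did not pass with Y-linked transcripts as a term, and the others did. Leaving out 1 library changed the counts by more than 1.5 times in 5 cases: 52 higher and 24 lower genes were called without sham 2, 75 and 32 without sham 3, 393 and 185 without vagotomy library 1, 339 and 254 without vagotomy library 2, and 320 and 194 without vagotomy library 3.

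**Figure D1:**
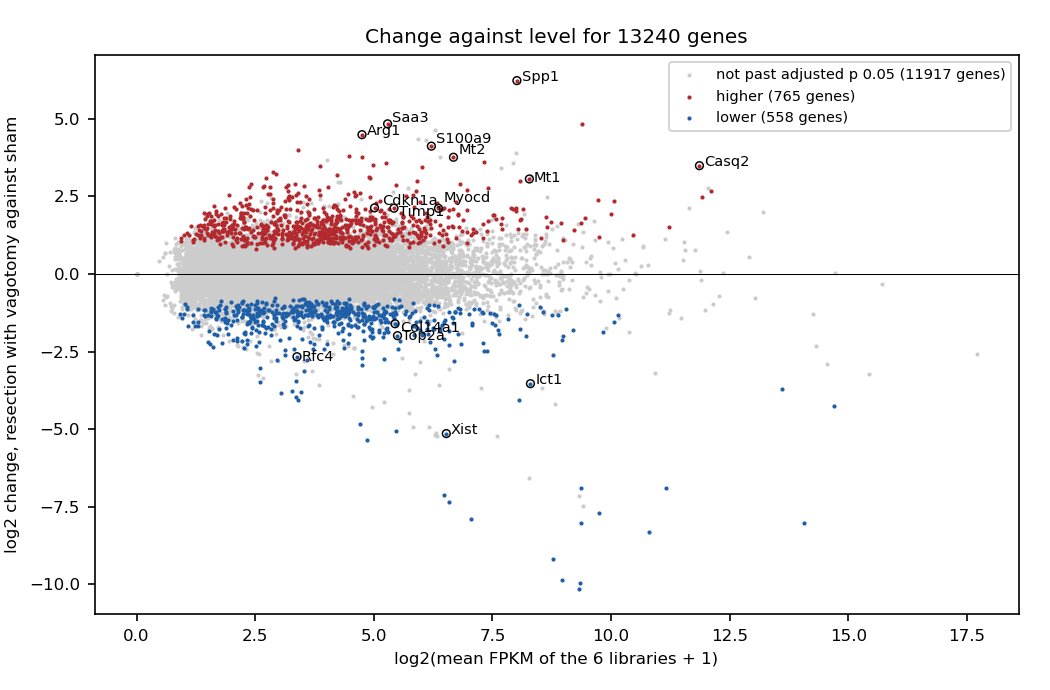
Each point is 1 of 13240 genes. The horizontal axis is log2 of the mean FPKM plus 1 over the 3 sham and 3 resection with vagotomy libraries, the vertical axis is the log2 change, and circles mark genes named in the text. Spp1 lies highest among the labelled genes, with a change of 6.23, and most of the lowest points are small RNAs.

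Libraries also differed in ways that the treatment label does not give. Y-linked transcripts were present in all 3 of them (Ddx3y at 21.5, 23.8 and 30.1 FPKM) and in sham 3 (31.9 FPKM), and were near 0 in sham 1 and sham 2 (0.029 and 0.085 FPKM). Xist, the RNA of the inactive X chromosome, was at 198 FPKM in sham 1, 345 in sham 2 and 2.16 in sham 3, and at 0.604, 1.17 and 0.418 in the vagotomy libraries. After resection alone Ddx3y was at 0.045, 0.029 and 25.9 FPKM and Xist at 131, 228 and 41.7, so that resection library 3 carries both. In the comparison with sham, sex and treatment were therefore nearly aligned: with the presence of Y-linked transcripts as a term in the fit, 26 genes were higher and 15 lower. Only 1 sham library carries Y-linked transcripts, too few for a comparison within that sex. Vagotomy library 3 had 424 tested genes listed at 0, against 113 to 190 in the other libraries, and the lowest mean correlation with the sham libraries (0.789, against 0.852 and 0.865 for the other two of its group). Small RNAs took 21.7% to 28.7% of the summed FPKM in the vagotomy libraries against 55.2% to 69.4% in sham, and 24 of 205 small RNA genes were lower and 3 higher. The change followed GC content, from a median of -0.45 in the tenth of genes with the lowest GC content to 0.43 in the tenth with the highest. The correlation across genes of a library's deviation from the mean log2 level with GC content was 0.382, 0.164 and 0.214 in the vagotomy libraries. In sham 1 it was 0.367, within their range, and in sham 2 and sham 3 it was -0.393 and -0.513, below all of them. The part of sex and base composition in the results was not tested beyond the fit with Y-linked transcripts and the fit with the GC and length trend removed. No fit had small RNA content as a term, so its part was not tested.

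**Figure D2:**
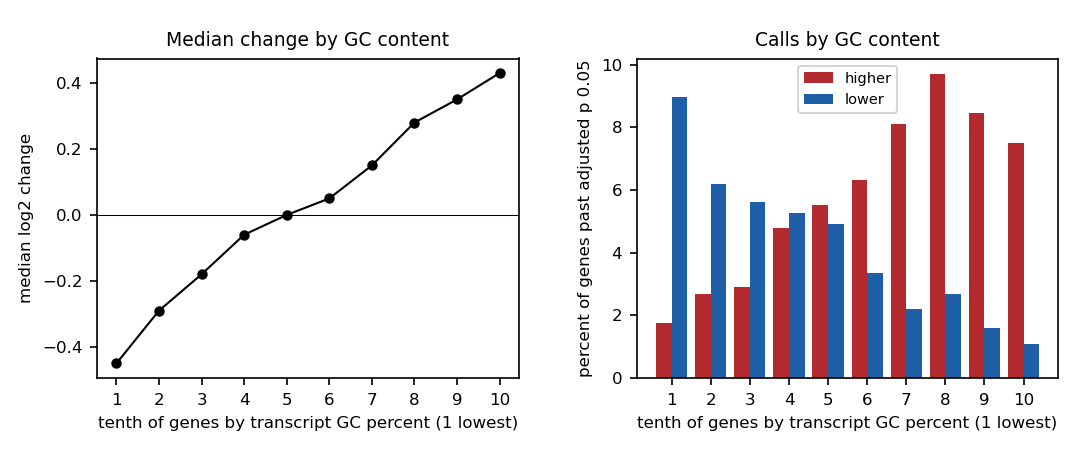
Genes are split into 10 equal bins by the GC content of their transcripts, lowest on the left. The left panel plots the median log2 change between resection with vagotomy and sham, which climbs from -0.45 to 0.43, and the right panel plots the percent of genes called higher or lower, where lower calls fall from 8.97% to 1.07% of genes.

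The defining genes of heart muscle were high in all 6 libraries, as the tissue label says. The summed level of 20 tested sarcomere genes was 17460 to 19210 FPKM in sham and 25580 to 65020 FPKM in the vagotomy libraries. This sum leaves out 2 sarcomere genes marked as having too many fragments. No marker of T, B or NK cells reached the minimum level. Skeletal muscle markers that did, 3 in number, summed to 339.7 to 712.1 FPKM in sham and 351.5 to 745.3 FPKM in the vagotomy libraries, which overlap.

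Among the named genes the largest rise was in Spp1, which encodes osteopontin, a secreted matrix protein and cytokine of activated macrophages (GRCm38 chr5:104435118-104441050). Spp1 was at 2.08, 5.22 and 11.5 FPKM in sham, at 273, 176 and 316 after resection alone, and at 473, 787 and 268 after resection with vagotomy. The lowest vagotomy library was far above the highest sham library, and the rise was 6.23 ± 0.53 (SE; adjusted p = 0.000664, limma). Arg1, arginase of wound-type macrophages (chr10:24915208-24927470), was at 0.41, 0.478 and 2.96 FPKM in sham and at 23.6, 42.5 and 85.6 after resection with vagotomy, a rise of 4.49 ± 0.53 (adjusted p = 0.00422). Tyrobp, the signalling adaptor of many myeloid receptors, was at 5.03, 3.81 and 5.63 FPKM in sham and at 58.2, 60.4 and 89.6 after resection with vagotomy, a rise of 3.58 ± 0.33 (adjusted p = 0.000742). The groups did not overlap for any of these genes, which was so for 36.7% of all tested genes.

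Of the 27 monocyte and macrophage markers tested, 14 rose and none fell, and their median change was 1.23. Those that rose include the lysosomal protease gene Ctss (3.08), the phagocyte glycoprotein gene Gpnmb (2.90), the scavenger receptor gene Msr1 (2.60), the endotoxin co-receptor gene Cd14 (3.80) and the lysozyme gene Lyz2 (2.29). The mean change was above 0 in 25 of the 27, and the 2 below 0 were Mrc1, the mannose receptor (-0.18, adjusted p = 0.739), and Cx3cr1, the fractalkine receptor (-0.49, adjusted p = 0.311). The summed level of the list was 412.6 to 868.7 FPKM in sham and 954.9 to 1267 FPKM in the vagotomy libraries, without overlap. In bulk tissue more cells of a type and more RNA per cell cannot be told apart. The count of higher members was 8 without sham 2, 10 without sham 3, 10 to 13 without a vagotomy library, 17 with the GC and length trend taken out, and 5 with Y-linked transcripts as a term: Ctss, Tyrobp, Gpnmb, Arg1 and Msr1.

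Neutrophil genes rose as well. S100a9, a subunit of the neutrophil protein calprotectin, was at 4.90, 6.29 and 6.84 FPKM in sham and at 50.8, 157 and 214 after resection with vagotomy, a rise of 4.12 ± 0.51 (adjusted p = 0.00531). Its partner subunit S100a8 was at 11.4, 20.3 and 30.9 FPKM in sham and at 35.7, 60.4 and 32.3 after resection with vagotomy, a change of 1.05 ± 0.39 that missed the threshold (adjusted p = 0.107). After resection alone S100a8 was at 203, 178 and 114 FPKM, above every vagotomy library, and the difference between the operated groups was -1.94 (adjusted p = 0.0353). For S100a9 that difference was 1.49 (adjusted p = 0.119), so the partners differed in sign between the operated groups, though this contrast between the genes was not tested. Of 13 neutrophil markers tested, 8 rose and none fell, with a median of 1.92. Among them were Retnlg (3.49), the gelatinase gene Mmp9 (2.47), the siderophore-binding Lcn2 (2.53) and Csf3r (1.92), the receptor of the granulocyte growth factor. The summed level of the list was 24.77 to 50.75 FPKM in sham and 143.2 to 385.5 FPKM in the vagotomy libraries. The count was 1 without sham 2, 2 without sham 3, 5 without vagotomy library 3, and 1, S100a9, with Y-linked transcripts as a term.

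**Figure D3:**
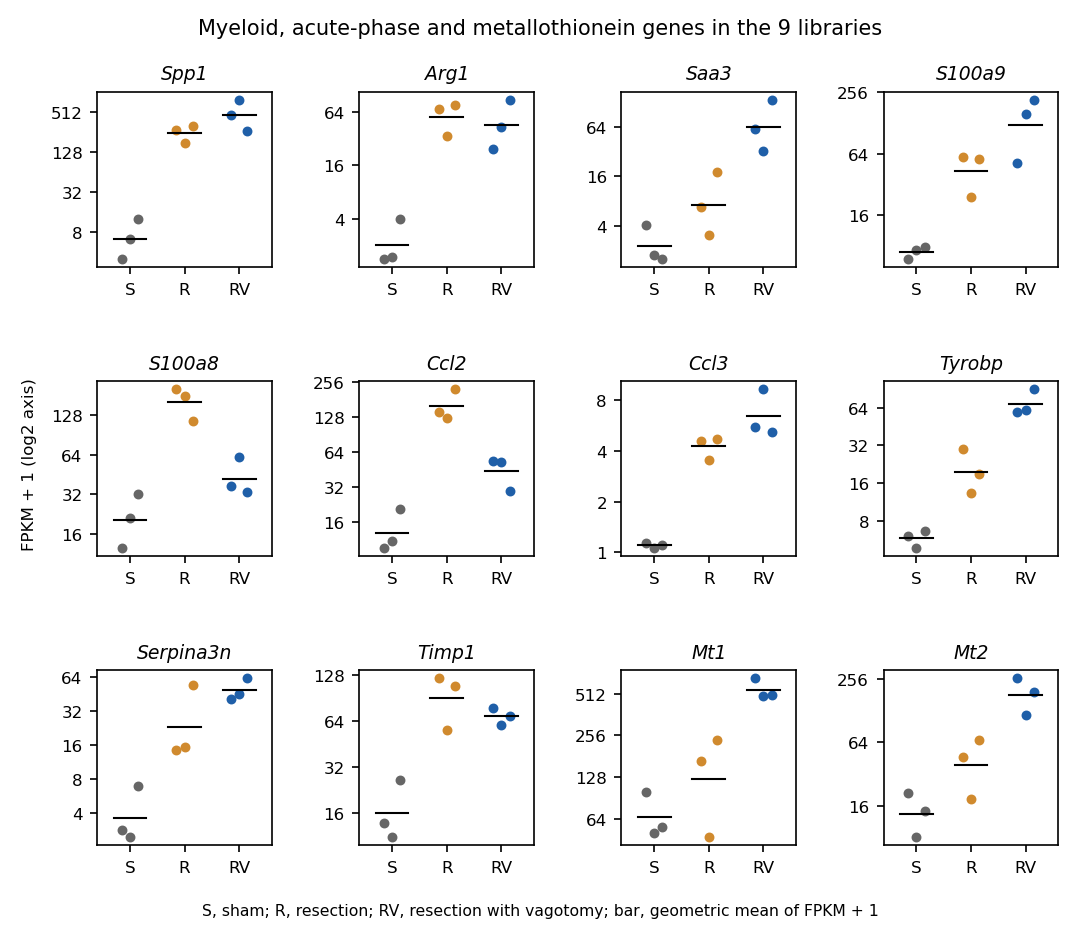
FPKM plus 1 on a log2 axis for 12 genes in sham (S), resection (R) and resection with vagotomy (RV), 3 libraries each, with the geometric mean as a bar. All genes but S100a8 passed the threshold between RV and S. S100a8 and Ccl2 are highest after resection alone, whereas Saa3, Tyrobp and Mt2 are highest with vagotomy.

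Chemokines draw leukocytes into a wound. Ccl2, the main monocyte attractant, was at 8.56, 10 and 20 FPKM in sham, at 141, 126 and 222 after resection and at 52.2, 51.6 and 28.9 after resection with vagotomy. The vagotomy libraries thus lay between the other groups, higher than sham by 1.75 ± 0.38 (adjusted p = 0.0226) and lower than resection alone by a log2 difference of -1.86 (adjusted p = 0.0346), at a locus that Ccl2 shares with 1 other gene. Against sham it passed in 5 of 9 fits with 1 library left out. Of 17 chemokines and cytokines tested, 8 rose and none fell: Spp1, Ccl4 (3.09), Ccl6 (2.58), Ccl3 (2.54), Ccl7 (2.23), the neutrophil attractant Cxcl2 (1.92), Ccl2 and Ccl9 (1.73). The count was 3 without sham 2, 5 without sham 1, 4 without vagotomy library 1, 5 without vagotomy library 2 or 3, and 3 with Y-linked transcripts as a term, at a median of 0.57. The AP-1 site TGACTCA and the C/EBP site TTGCGCAA, searched on both strands in the 250 bases before the start, were in 0 of the 5 of these genes that have an entry in the RefSeq promoter table, against 4.46% and 0.164% of all promoters there. The inflammatory cytokine Il1b was at 0.0945, 0.176 and 0.494 FPKM in sham and at 2.54, 2.04 and 2.76 after resection with vagotomy, and did not pass (1.47, adjusted p = 0.0986). Its antagonist Il1rn did: 0.153, 0.15 and 0.495 FPKM in sham against 17.8, 17.2 and 21.8, a rise of 3.98 ± 0.55 (adjusted p = 0.00606). Against resection alone, 3.45% of all tested genes passed, and in this list none was higher and 2, Ccl2 and Cxcl16 (-1.37), were lower.

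Acute-phase genes, induced by interleukin-6 and STAT3 signalling, included the largest rise after Spp1 among the named genes. Saa3, a serum amyloid made outside the liver, was at 3.09, 0.775 and 0.557 FPKM in sham, 5.64, 2.05 and 16.9 after resection and 59.5, 31.1 and 134 after resection with vagotomy. Every vagotomy library exceeded every other library, and the change was 4.83 ± 0.68 against sham (adjusted p = 0.00632) and 3.17 against resection alone (adjusted p = 0.0377). Of 21 tested members of the list 6 rose and none fell, the others being Serpina3n (3.77), a protease inhibitor, haptoglobin Hp (2.79), Cebpb (2.54), a transcription factor of the acute-phase response, Lcn2 and the metalloproteinase inhibitor Timp1 (2.12). Cebpb and Timp1 share their loci with other genes, so their values are less certain. The count was 2 without sham 2, 3 without sham 3, 3 without vagotomy library 3, and 1 with Y-linked transcripts as a term. Complement genes rose in 3 of 14, the anaphylatoxin receptors C5ar1 (2.49) and C3ar1 (1.85) and the properdin gene Cfp (1.87). The NF-kB list had 4 of 21 higher, the adhesion molecule gene Icam1 (1.57), the feedback inhibitors Nfkbia (1.36) and Tnip1 (1.62), and Nfkb2 (1.28). No member of the NF-kB list was called without sham 2, without sham 3 or with Y-linked transcripts as a term, and 2 were without vagotomy library 3. The complement count was 1 without sham 2 and 1 with that term. Of 19 interferon-induced genes none rose and 1, Bst2 (-1.11), fell.

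Metallothioneins are small proteins that bind zinc and copper and are induced by metals, glucocorticoids and oxidants. Mt2 was at 19.9, 6.97 and 13.2 FPKM in sham, 45.6, 17.6 and 66.4 after resection and 262, 115 and 193 after resection with vagotomy. The lowest vagotomy library was above all others, with a change of 3.76 ± 0.52 against sham (adjusted p = 0.00602) and of 2.22 against resection alone (adjusted p = 0.046). Mt1 was at 99.6, 49.4 and 54.8 FPKM in sham and at 662, 488 and 503 after resection with vagotomy, a rise of 3.06 ± 0.54 (adjusted p = 0.0129). The third member of the 17-gene metallothionein and oxidative stress list to rise was the superoxide dismutase gene Sod1 (1.36). Hmox1, heme oxygenase, had a change of 1.46 (adjusted p = 0.0891). The list had 1 higher member without sham 2 or without sham 3, and none with Y-linked transcripts as a term.

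Matrix proteases and their inhibitors rose in 9 of 23 tested, with a median of 1.12 and none lower. They include Ctss and Mmp9, the disintegrin proteases Adam8 (2.08) and Adamts1 (1.40), the lysosomal Ctsl (1.36), Serpine2 (1.12), Timp1 and Timp4 (1.59). Without sham 2 this count was 1, without sham 3 it was 4, and with Y-linked transcripts as a term it was 1. Among 24 provisional matrix proteins 5 rose and 3 fell. Those that rose, beside Spp1, were the adhesion proteins Tgfbi (1.74), Thbs1 (1.74) and Tnc (1.48), and Sparc (1.25). Those that fell were the collagen crosslinking enzyme Loxl2 (-2.41), the fibulin Efemp1 (-1.35) and Nov (-1.39). Loxl2, at a shared locus, was at 27.2, 19.3 and 28.6 FPKM in sham and at 3.17, 3.98 and 4.43 after resection with vagotomy. These groups did not overlap, which was so for 36.7% of all tested genes. In this list 1 gene was higher and 1 lower without sham 2, 3 and 0 without sham 3, 4 and 1 without vagotomy library 1, 2 and 2 without vagotomy library 2, 2 and 3 without vagotomy library 3, and 1 and 0 with Y-linked transcripts as a term. Of 18 collagens 1, Col5a3 (1.73), rose and 1, Col14a1 (-1.61), fell. These are 5.56% each, near the shares of all genes, 5.78% higher and 4.21% lower. No collagen was called without sham 2, without sham 3 or with Y-linked transcripts as a term.

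**Figure D4:**
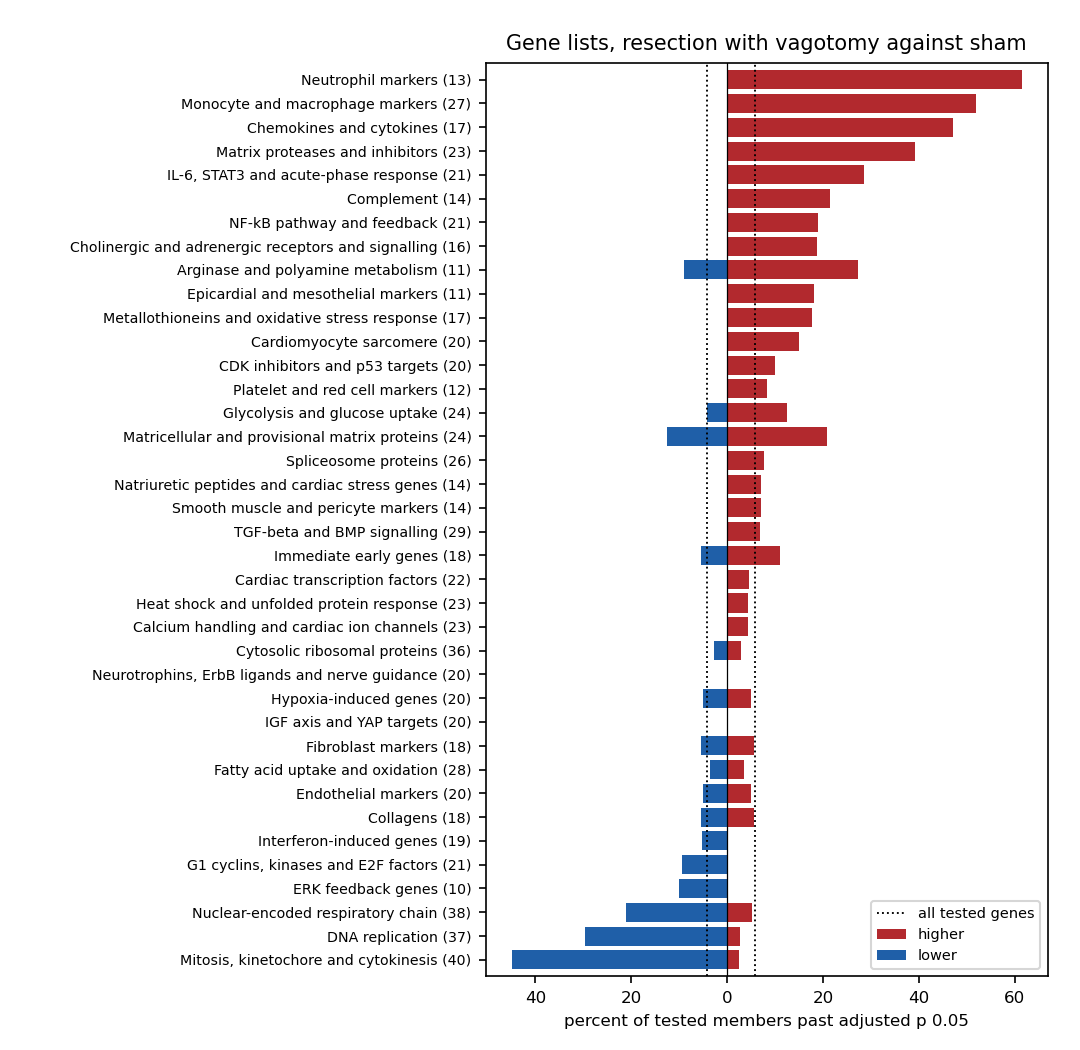
For each list with at least 10 tested members, bars give the percent of members past the threshold against sham, higher to the right and lower to the left, with the number tested in brackets. Dotted lines mark all tested genes, 5.78% higher and 4.21% lower. Neutrophil, macrophage and chemokine lists reach 61.5%, 51.9% and 47.1% higher, and mitosis and replication lists 45% and 29.7% lower.

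Among the lists, those of the cell cycle had the most genes that fell. Of 40 mitosis, kinetochore and cytokinesis genes tested, 18 fell and 1 rose, with a median of -1.11. Of 37 DNA replication genes 11 fell and 1 rose, with a median of -0.58. These counts depended on the sham libraries. Without sham 2 none of either list was lower, and without sham 3 none of the replication list and 1 of the mitosis list. Without any 1 vagotomy library 10 mitosis and 6 replication genes were lower. With Y-linked transcripts as a term none was lower, at medians of -1.22 and -0.65, and 17 and 16 once the trend with GC content and length was taken out.

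Several of these genes are known to share the cell cycle gene homology region (CHR), a short promoter element through which the DREAM and MuvB complexes switch mitotic genes off outside the G2 and M phases. The element, TTTGAA, was searched on both strands in the 250 bases before the start of transcription (RefSeq, build GRCm38.p6). It was found in 7 of the 24 genes called lower that have an entry, 29.2%, in 9 of 40 tested members not called lower, 22.5%, and in 16% of all 32851 promoters. The E2F sites TTTGGCGC, TTTCCCGC and TTTCGCGC, which bind the E2F factors of the G1 to S transition, were in 3 of the 24, 12.5%, in 8 of the 40, 20%, and in 1.53% of all promoters. A gene of the lists counts if any of its promoter entries holds the motif, whereas the share of all promoters counts each entry. The shares are therefore not fully alike. A match is a description of the letters and not a bound site. The 120 bases before the start of 4 of the genes called lower are printed 5′ to 3′ on the gene's strand, with the element or its reverse complement in capitals, to show where it lies next to the start.
Cdk1, chr10:69352913-69353032, minus strand: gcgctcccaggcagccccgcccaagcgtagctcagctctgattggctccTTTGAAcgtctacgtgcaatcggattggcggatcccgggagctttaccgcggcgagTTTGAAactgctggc
Kif11, chr19:37376262-37376381, plus strand: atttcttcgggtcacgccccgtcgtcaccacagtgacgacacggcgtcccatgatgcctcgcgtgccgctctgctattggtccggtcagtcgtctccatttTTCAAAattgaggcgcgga
Ncapg, chr5:45669805-45669924, plus strand: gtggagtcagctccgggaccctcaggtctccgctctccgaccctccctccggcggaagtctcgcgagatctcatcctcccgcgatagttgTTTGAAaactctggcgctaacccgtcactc
Top2a, chr11:99024190-99024309, minus strand: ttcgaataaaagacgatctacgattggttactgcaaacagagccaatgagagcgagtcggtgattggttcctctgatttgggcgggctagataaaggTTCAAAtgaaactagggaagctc

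In Cdk1 the element starts 71 and 15 bases before transcription, in Ncapg 30 bases, and in Kif11 and Top2a on the opposite strand 19 and 23 bases. Top2a, the topoisomerase that untangles sister chromatids, was at 46.2, 100 and 69.1 FPKM in sham, 25.6, 22.7 and 35 after resection and 17.4, 19 and 13.5 after resection with vagotomy. It fell by 1.99 ± 0.32 (SE, n = 3 per group; adjusted p = 0.00985, limma), at a locus shared with other genes. Kif11, the spindle motor, was at 10.9, 21.4 and 19 FPKM in sham and at 3.98, 3.68 and 1.95 after resection with vagotomy, and fell by 2.09 ± 0.34 (adjusted p = 0.0106). Cdk1, the mitotic kinase, was at 30.9, 47.2 and 46.3 FPKM in sham and at 21.4, 23.3 and 13.9 after resection with vagotomy, and fell by 1.05 (adjusted p = 0.0412). The condensin gene Ncapg fell by 1.26 (adjusted p = 0.0294). In each of these genes the vagotomy libraries lay below all sham libraries. Groups did not overlap, in either direction, in 36.7% of all tested genes.

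Other mitotic genes that fell include Bub1 (-2.25), a spindle checkpoint kinase, Cenpa (-1.62), the centromeric histone, Ccnb1 (-1.44), cyclin B, and Foxm1 (-2.41), the factor that induces many of them. Foxm1 and Aurka (-1.75) were listed at 0 in vagotomy library 3. The exception was Cdca8, a subunit of the chromosomal passenger complex, at 3.99, 5.22 and 3.03 FPKM in sham and at 20.6, 16.2 and 7.21 after resection with vagotomy (1.54, adjusted p = 0.0459; its locus holds 1 other gene). Aurkb, the kinase of that complex, had a change of -0.69 (adjusted p = 0.222). The proliferation marker Mki67 had a change of -1.13 (adjusted p = 0.0902).

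Replication genes that fell include both subunits of ribonucleotide reductase, which makes the building blocks of DNA. Rrm2 was at 43.1, 74.3 and 62.6 FPKM in sham, 17.9, 18.6 and 19.5 after resection and 19.8, 16.5 and 11.3 after resection with vagotomy, and fell by 1.85 ± 0.28 (adjusted p = 0.00898). Rrm1 fell by 1.49 ± 0.28 (adjusted p = 0.0147). The helicase subunits Mcm4 (-1.27), Mcm2 (-1.25), Mcm3 (-1.05) and Mcm6 (-1.05), the polymerase subunit Pole2 (-1.65), Uhrf1 (-0.95), which guides maintenance DNA methylation, and Rfc4 (-2.67), part of the clamp loader, fell too. Gins2, the member that rose (1.32), lies in a deposited locus that spans 183 genes, so its value is uncertain. Cyclin E2, Ccne2, was at 7.93, 19.4 and 14.8 FPKM in sham and at 1.28, 1.82 and 0.911 after resection with vagotomy. This was a fall of 2.62 ± 0.38 (adjusted p = 0.00655), at a shared locus. Cdkn1a, the cyclin kinase inhibitor p21, was at 10.4, 7.6 and 8.9 FPKM in sham and at 23.6, 29 and 109 after resection with vagotomy, a rise of 2.13 ± 0.54 (adjusted p = 0.0373), which passed in 4 of 9 fits with 1 library left out and was 1.46 without vagotomy library 3.

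**Figure D5:**
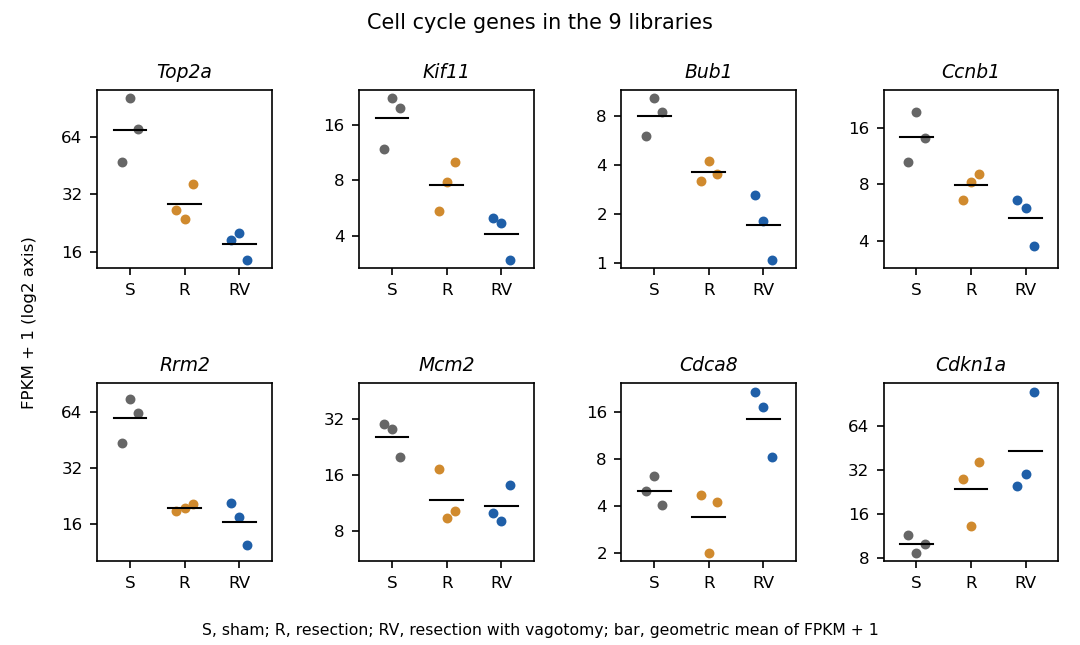
FPKM plus 1 on a log2 axis for 8 cell cycle genes in sham (S), resection (R) and resection with vagotomy (RV), 3 libraries each, with the geometric mean as a bar. In Top2a, Kif11, Bub1, Ccnb1, Rrm2 and Mcm2 all RV points lie below all S points, and in Cdca8 and Cdkn1a they lie above. RV and S did not overlap, in either direction, in 36.7% of all tested genes.

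Both surgeries were compared with the same sham libraries, so their changes are given side by side and are not independent. For resection alone against sham, 35 genes passed, 0.264% of those tested, and all were higher. The macrophage list had a median of 1.23 with vagotomy and of 1.27 without, the neutrophil list 1.92 and 2.04, the chemokine list 1.47 and 2.1, the mitosis list -1.11 and -0.87 and the replication list -0.58 and -0.75. The difference between the operated groups themselves passed in 2 of 27 macrophage markers, both higher with vagotomy, and in 1 of 13 neutrophil markers, S100a8, lower with vagotomy. In the mitosis list 2 genes were higher with vagotomy (Cdca8 and Cdc20), and in the replication list Rfc4 was lower (-1.91, adjusted p = 0.0391) and Gins2, at its uncertain locus, higher (1.58, adjusted p = 0.0353). With the replicate number as a block, 1266 genes passed in this contrast against 457 without it: in the replication list 4 were then higher and 1 lower, and in the neutrophil list 1 and 1. Whether a change against sham also differed between the operated groups was thus tested gene by gene only in that contrast. Its 457 calls became 19 with only the 6 libraries compared, 36 without resection library 2 and 17 with Y-linked transcripts as a term. Those transcripts were in all vagotomy libraries and near 0 in resection libraries 1 and 2, so sex and vagotomy were partly aligned. All adjusted p-values given against resection alone carry these limits.

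Genes of heart muscle were among those that differed from resection alone. Myl3, the ventricular essential light chain of myosin, was at 1680, 1150 and 804 FPKM in sham, 1432, 423 and 838 after resection and 6514, 5818 and 10656 after resection with vagotomy. It was higher by 2.67 ± 0.50 than in sham (adjusted p = 0.0147) and by 3.21 than after resection (adjusted p = 0.0181). Tnnc1, cardiac troponin C, was at 1150, 1064 and 844 FPKM in sham and at 3017, 4610 and 12494 after resection with vagotomy, a rise of 2.46 ± 0.54 (adjusted p = 0.0246), at a locus with 1 other gene, and passed in 5 of 9 fits with 1 library left out. Actn2, the Z-disc actinin, rose by 1.41 (adjusted p = 0.0391). These were 3 of 20 sarcomere genes tested, and none of the 20 fell. The list holds 2 further genes, left out as having too many fragments. With such genes kept, 3 of 22 were higher and 2 lower, at a median of 0.42. Others had wide spreads: Tnnt2, troponin T, had a change of 1.35 (adjusted p = 0.188) and Ttn, titin, -0.22 (adjusted p = 0.678). No sarcomere gene was called without sham 2, without sham 3 or with Y-linked transcripts as a term, and 1 to 2 were without a vagotomy library.

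Casq2, the calcium-binding protein of the sarcoplasmic reticulum, was at 274, 411 and 570 FPKM in sham and at 1619, 3518 and 15944 after resection with vagotomy. The third vagotomy library was far above the others, and the change was 3.48 ± 0.85 (adjusted p = 0.0334). It was 2.57 without that library, and passed in 4 of 9 fits with 1 library left out. Casq2 was the only one of 23 calcium handling and ion channel genes called, 4.35%, below the 5.78% of all genes that were higher. None of the 23 was called with Y-linked transcripts as a term. Myocd, the coactivator of serum response factor in heart and smooth muscle, was at 26.6, 29.1 and 33.2 FPKM in sham, 16.3, 27.2 and 35.6 after resection and 104, 133 and 162 after resection with vagotomy. It was higher by 2.11 ± 0.31 than in sham (adjusted p = 0.00748) and by 2.33 than after resection (adjusted p = 0.00898). Myocd was the 1 cardiac transcription factor of 22 called against sham, 4.55%, also below the share of all genes. It did not pass with Y-linked transcripts as a term. Tagln, a smooth muscle actin-binding protein, rose by 1.97 (adjusted p = 0.0083; shared locus). Among cardiac stress genes, Nppa had a change of -0.52 (adjusted p = 0.508), Nppb 0.71 (adjusted p = 0.389) and Ankrd1 0.88 (adjusted p = 0.147).

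Of 38 nuclear-encoded respiratory chain genes, 8 fell and 2 rose, at a median of -0.09. Ndufb3, a subunit of complex I, was at 56.5, 35.7 and 48.4 FPKM in sham and at 193, 148 and 262 after resection with vagotomy, a rise of 2.06 ± 0.29 (adjusted p = 0.00632). Ndufa1 of the same complex was at 362, 197 and 257 FPKM in sham and at 89.7, 86.2 and 12.6, a change of -2.48 ± 0.68 (adjusted p = 0.0453), which passed in 1 of 9 fits with 1 library left out. Ndufc1 (-1.64) and Ndufs3 (-1.24) of complex I, Uqcrc2 (-1.88) of complex III and Cox7a1 (-2.23) of complex IV fell as well, and Sdhc (1.51) of complex II rose. Outside the list, Ndufb2 (-2.62) and Ndufb6 (-2.48) were among the 15 genes with the largest falls, both at shared loci. Without sham 2 or sham 3 none of the respiratory genes was called lower and 1 was called higher, without another of the libraries compared 2 to 3 were lower and 1 to 2 higher, and with Y-linked transcripts as a term none was called. Of 36 ribosomal protein genes 1, Rplp2 (1.68), was higher and 1, Rps14 (-1.77), lower, 2.78% each, below the shares of all genes, and none was called without sham 2 or sham 3.

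Ict1, a mitochondrial peptidyl-tRNA hydrolase (chr11:115403752-115412674), fell with little spread between libraries. It was at 715, 585 and 441 FPKM in sham, 367, 484 and 335 after resection and 41.5, 62.5 and 43 after resection with vagotomy. The change was -3.54 ± 0.30 against sham (adjusted p = 0.000664) and -2.99 against resection alone (adjusted p = 0.00207), and it passed with Y-linked transcripts as a term (adjusted p = 0.01), at a locus with 1 other gene. Other large falls were in Xist (-5.14), the mitochondrial import gene Dnajc19 (-2.95), Rpl22l1 (-2.82), Pgp (-2.74), the mitochondrial ribosomal Mrps12 (-2.71), Usp34 (-2.61), the kinetochore gene Ska2 (-2.48), the cohesin acetyltransferase Esco2 (-2.45) and Ccdc23 (-2.42). With 1 library left out, Xist passed in 1 of 9 fits, Pgp in 3, Mrps12 in 4 and the others in 6 to 9. Xist was at 2.16 FPKM in sham 3, the sham library with Y-linked transcripts. Other large rises were in Romo1 (3.60), an inner mitochondrial membrane protein at a shared locus, the transferrin gene Trf (3.50), Tinagl1 (3.44) and adapt33_4 (3.29). Tinagl1, a matrix protein, was at 17.3, 8.36 and 6.18 FPKM in sham and at 112, 102 and 134 after resection with vagotomy, and was higher also than after resection alone (2.40, adjusted p = 0.0287), as were Mrpl41 (2.27, adjusted p = 0.0499) and Hcls1 (2.39, adjusted p = 0.0359).

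Of 24 glycolysis genes, the pyruvate kinase Pkm (1.80), the hexokinase Hk1 (1.13) and the lactate exporter Slc16a3 (2.24) rose, while Slc16a1 (-1.24), another monocarboxylate carrier, fell. Of 28 fatty acid genes the long-chain dehydrogenase Acadl rose (1.08) and the medium-chain Acadm fell (-1.12), at a median of 0.08. These are 3.57% each, below the shares of all genes, 5.78% higher and 4.21% lower. In the polyamine list, Arg1, Azin1 (2.04) and Smox (1.75) rose and the antizyme Oaz1 fell (-1.22). None of the glycolysis and fatty acid genes and 1 of the polyamine genes was called with Y-linked transcripts as a term, and the same numbers without sham 2 or without sham 3. The stress-induced genes Atf3 (2.67) and Ddit4 (2.87) rose. Of 18 immediate early genes, the list of Atf3, 2 were higher and 1 lower. Of 20 hypoxia-induced genes, the list of Ddit4, 1 was higher and 1 lower, 5% each, near the shares of all genes. No gene of either list was called with Y-linked transcripts as a term.

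The receptor for vagal acetylcholine did not pass the threshold. Chrm2, the muscarinic receptor through which the vagus slows the heart, was at 13.4, 23.3 and 25.9 FPKM in sham, 11.4, 34.7 and 20.3 after resection and 19.5, 17.9 and 11.9 after resection with vagotomy. These groups overlap, and the change was -0.31 ± 0.40 (adjusted p = 0.641). Ache, acetylcholinesterase, had a change of -0.11 (adjusted p = 0.843). Of 16 cholinergic and adrenergic genes 3 rose: the adrenergic receptor gene Adra1b (1.58), the G protein gene Gnao1 (1.51) and the nicotinic subunit gene Chrnb1 (1.45). Adra1b was at 12.4, 7.77 and 8.28 FPKM in sham and at 36.5, 30.7 and 23.6 after resection with vagotomy. In this list none was called without sham 2, without sham 3 or with Y-linked transcripts as a term, and 1 was higher without vagotomy library 1. None of 20 neurotrophin, ErbB and guidance genes was called, Erbb2 having a change of 0.64 (adjusted p = 0.162) and Erbb4 of -0.50 (adjusted p = 0.375). None of the 6 nerve fibre and Schwann cell markers above the minimum level was called.

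Markers of other heart cell types are set beside all tested genes, of which 5.78% were higher and 4.21% lower. The endothelial list had 5% higher and 5% lower, and the fibroblast list 5.56% each. The smooth muscle and pericyte list had 7.14% higher. These higher shares are near that of all genes. The epicardial list had 18.2% higher, but none was called without sham 2 or with Y-linked transcripts as a term. Of 20 endothelial markers Plvap rose (1.55) and Emcn fell (-1.58), of 18 fibroblast markers Gsn rose (1.37) and Mfap5 fell (-1.43), and of 14 smooth muscle and pericyte markers only Tagln was called. Emcn, a sialomucin of capillary and venous endothelium, was at 22.7, 31.2 and 32.6 FPKM in sham, 30, 41.7 and 25.2 after resection and 9.12, 10.4 and 7.39 after resection with vagotomy, below all other libraries. Of 11 epicardial markers Clu (3.00) and Krt18 (1.34) rose and none was called lower. The mean change was above 0 in 5 of the 11 and below 0 in 6, at a median of -0.01. Clu, clusterin, was at 31.3, 41.6 and 125 FPKM in sham and at 310, 387 and 734 after resection with vagotomy.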

How the data were processed

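RNA-seq libraries of the ventricular apex were read from the expression matrix, whose values are FPKM plus a pseudocount of 1 that the authors added before deposit. Per the submitters' processing notes, TopHat2 2.0.9, Cufflinks 2.1.1 and Cuffdiff 2.1.1 were used with GRCm38, with no role given for each. The deposited FPKM carry no counts, so the depth per library is unknown and no counting error can be given. Gene symbols came from a deposited Cuffdiff table, whose loci can span several genes. Of the 14479 genes, 6619 share a deposited locus with other genes, which makes their values less certain. Not every such gene named above is marked.

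The pseudocount was subtracted, 9 genes marked as having too many fragments were left out, and 13240 genes that averaged 1 FPKM or more across the 9 libraries were kept. limma 3.58.1 (R 4.3.3) was fitted to log2(FPKM + 1) over all 9 libraries with 1 mean per group and a mean-variance trend, so the groups share 1 estimate of the spread. P-values are two-sided and adjusted by Benjamini-Hochberg over all tested genes, with a threshold of 0.05. The fit was tested on simulated data. Named genes are the 15 largest changes in each direction whose groups do not overlap, the 8 in each direction that also passed against resection alone, the 4 members of lowest p in every list, and a fixed set, with unnamed gene models, small RNAs and pseudogenes left out of the ranked parts. Further genes were named after their values were seen, to account for the members of each list that passed. The genes, lists and tests were chosen with earlier results of these data known. Lists are described by counts and medians with no test. GC content and gene types came from GENCODE M21, which had a model for 14307 of the 14479 genes. The labels give the groups the same replicate numbers and do not say what a number shares. Deviations from the group means correlated at 0.2, 0.142 and 0.117 between same-numbered vagotomy and resection libraries. Deviations within a group cancel by construction and come from these same data, so these values cannot show that the numbers pair those libraries. The count from the fit with the number as a block stands beside that contrast as an alternative. The block took away none of the calls against resection alone that are given with a p. Alternatives covered pseudocounts, filters, scaling, the libraries and terms in the fit, and leaving out each library. The fits with Y-linked transcripts (Ddx3y above 1 FPKM) as a term, with protein-coding genes only and with single-gene loci only were added after seeing the data.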

Additional observations from a re-analysis of the deposited data

How the results depend on the processing

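Higher and lower genes against sham numbered 3366 and 3020 with library weights, whose estimation stopped before full convergence, 472 and 354 at loci with 1 gene, and 26 and 15 with Y-linked transcripts as a term. With the GC and length trend removed 1192 were lower and 1135 higher. Upper-quartile scaling gave 691 higher and 664 lower, and quantile normalization 711 and 668, against 765 and 558. Leaving out 1 library gave 52 to 963 higher and 24 to 721 lower, the fewest without sham 2. Genes past the threshold against resection alone, 457, became 19 with only the 6 libraries compared, 880 with library weights, 1426 with the GC and length trend removed, 17 with Y-linked transcripts as a term, 245 at loci with 1 gene, and 36 to 563 with 1 library left out, the fewest without resection 2. For resection against sham, 35 genes became 62 and 15 at pseudocounts of 0.1 and 5, 11 with only the 6 libraries, 71 with robust moderation, 419 with library weights, 88 with the trend removed, 85 among protein-coding genes, 61 at loci with 1 gene, and 6 to 56 with 1 library left out. The cause was not tested.

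Of 119 named genes past the threshold, 24 passed without sham 2, 35 without sham 3, 72 to 77 without a vagotomy library, 16 with Y-linked transcripts as a term, and 114 with the trend removed. Chrm2 changed sign with the trend removed (0.000652) and Nppa with library weights (0.014), and neither was called. Deviations of same-numbered sham and vagotomy libraries had correlations of 0.186, 0.171 and -0.019, and those of sham and resection libraries 0.5, 0.208 and 0.014. These values cannot show a pairing either. With the replicate number as a block, 1321 genes were higher and 1080 lower against sham, 1266 passed against resection alone and 53 for resection against sham. Without counts, the depth behind low values is unknown.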
